A study of Mus musculus with 12 samples.

Results

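The genes described here are 8 members of the classical cadherin adhesion system: Cdh2, Cdh4 and Cdh13, which encode N-, R- and T-cadherin, and the catenin genes Ctnna1, Ctnna2, Ctnnb1, Ctnnd1 and Ctnnd2. The rule that picks them goes by symbol, but they were proposed with earlier results of these data known. They are 8 of the 55359 genes in the count files. All 8 were found and all 8 passed the filter on low counts. RNA was sequenced in bulk from the ventroposterior medial nucleus (VPM) of newborn mice, the thalamic nucleus that carries touch signals from the face to the somatosensory cortex. The libraries come from pups at postnatal day 0, and each was made from a pool of 5 brains, so the replicates are pools and p-values measure the spread between pools. There were 3 groups of 4 libraries: the upper lip territory of pups labelled embWPC (embWPC ALBSF), the whisker pad territory of control pups (Ctrl PMBSF) and the upper lip territory of control pups (Ctrl ALBSF). What embWPC stands for is not given in the labels, nor is a strain or genotype, and it is used as a name only. The PMBSF of embWPC pups was not analysed here. The control libraries pair by number, as given below. The main fit leaves this pairing out, so its p-values take the libraries as independent pools. Counts per library totalled between 31712820 and 33702453 for embWPC ALBSF, between 31921767 and 34512840 for Ctrl PMBSF, and between 28457046 and 31850727 for Ctrl ALBSF.

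A classical cadherin binds a cadherin on the next cell with its outer part and holds catenins with its inner tail. Beta-catenin (Ctnnb1) and a p120-type catenin (Ctnnd1 or Ctnnd2) bind the tail directly, and an alpha-catenin (Ctnna1 or Ctnna2) links beta-catenin to actin. Beta-catenin also acts in the nucleus as the partner of TCF/LEF factors in Wnt signalling. In the developing brain N-cadherin is the broadly used cadherin of neuroepithelium and young synapses, and differing sets of cadherins are known to mark thalamic nuclei and cortical areas. T-cadherin is the exception in the family, since it is held in the membrane by a lipid anchor and has no catenin-binding tail.

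That difference can be read in the ends of the coding sequences, which are shown because Cdh4 is the member on which the results turn and Cdh13 is the one without a tail. The last 75 coding bases are in lower case and the stop codon is in capitals, 5′ to 3′, from the GRCm39 genome and the GENCODE release 39 canonical transcripts. The Cdh4 stretch lies on the plus strand at chr2:179537634-179537711, in 1 exon, and the Cdh13 stretch lies on the plus strand between chr8:120040864-120050141, split by an intron.
Cdh4: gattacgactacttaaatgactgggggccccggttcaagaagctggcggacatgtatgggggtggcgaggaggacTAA
Cdh13: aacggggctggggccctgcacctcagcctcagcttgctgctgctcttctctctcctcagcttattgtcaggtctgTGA
Cdh4 has 913 codons, of which 162 follow its most hydrophobic stretch of 20 codons, the stretch that crosses the membrane. Cdh2 has 906 codons, and there too 162 codons follow that stretch. In Cdh13, with 714 codons, the corresponding stretch ends 3 codons before the stop, so its coding sequence holds no inner tail. Messenger RNA for both kinds of cadherin was present in every library.

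Counts are given as CPM, counts scaled to a common library total with TMM, a factor per library that makes most genes comparable. Between genes, levels are compared per kilobase of merged exons. On that scale Ctnnb1 (ENSMUSG00000006932, GRCm39 chromosome 9, 120757422 to 120789579, plus strand) had the highest level, with 53.4 ± 3.89 CPM per kilobase over all libraries (SD, n = 12). Ctnna2 (ENSMUSG00000063063, chromosome 6, 76858342 to 77956718, minus strand), the alpha-catenin of neurons, came next with 16.1 ± 1.06 CPM per kilobase. Cdh2 (ENSMUSG00000024304, chromosome 18, 16700793 to 16942381, minus strand) followed with 8.92 ± 0.92, and Ctnnd2 (ENSMUSG00000022240, chromosome 15, 30172668 to 31029959, plus strand), the p120 relative of neurons, with 8.03 ± 0.66. The ranges of Cdh2 and Ctnnd2 overlapped, and Cdh2 was above Ctnnd2 in 8 of 12 libraries.

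The lower-expressed members were the cadherin genes Cdh13 and Cdh4 and the catenin genes Ctnna1 and Ctnnd1. Cdh13 (ENSMUSG00000031841, chromosome 8, 119010328 to 120051660, plus strand) had 4.43 ± 1.06 CPM per kilobase and Cdh4 (ENSMUSG00000000305, chromosome 2, 179084201 to 179541166, plus strand) had 3.91 ± 1.02 (SD, n = 12). Cdh13 was above Cdh4 in 9 of 12 libraries, so this pair has no fixed order. Ctnna1 (ENSMUSG00000037815, chromosome 18, 35226033 to 35387833, plus strand), the alpha-catenin of epithelia and other tissues, had 2.12 ± 0.31 CPM per kilobase. It was under Cdh4 in 12 of 12 libraries, although the ranges of the pair over all libraries overlapped. Ctnnd1 (ENSMUSG00000034101, chromosome 2, 84425959 to 84489326, minus strand), which encodes p120-catenin itself, was lowest with 0.479 ± 0.0661 CPM per kilobase, from 133 to 237 counts in a library. Its level is uncertain, because 37.6% of its merged exon bases are shared with the predicted gene Gm28635 on the same strand, which is listed with 0 counts in all 12 libraries. How reads in shared bases were assigned is not given in the sources used here. Overlapping exon bases with other genes made up 11.7% for Ctnnb1, 6.07% for Ctnnd2, 1.52% for Ctnna1, 0.73% for Cdh13 and 0% for Cdh2, Cdh4 and Ctnna2.

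**Figure D1:**
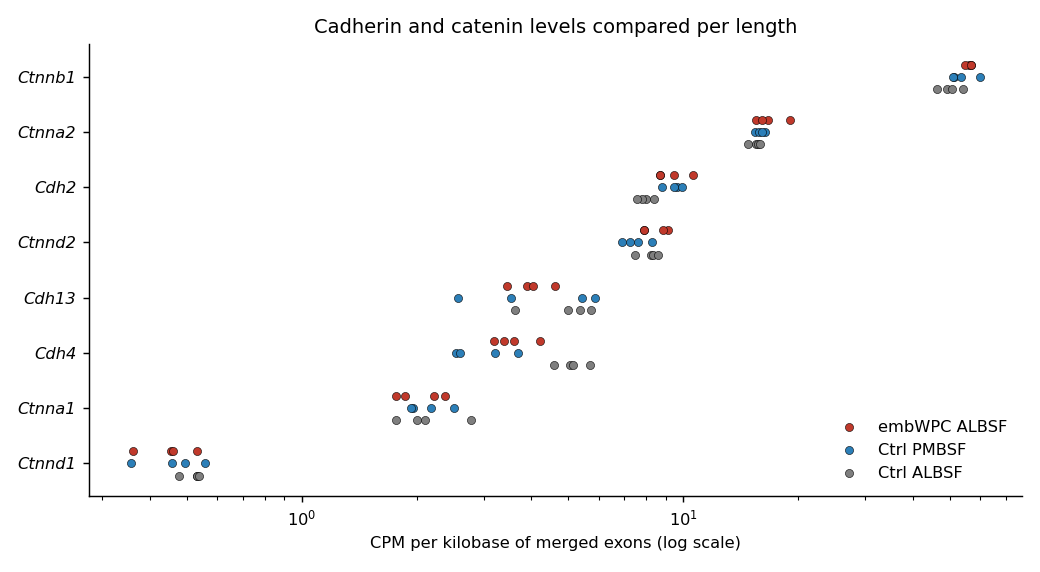
CPM per kilobase of merged exons (log axis) for the 8 genes, ordered by mean; each point is 1 library, with embWPC ALBSF in red, Ctrl PMBSF in blue and Ctrl ALBSF in grey. Ctnnb1 lies above all others in every library and Ctnnd1 below all others, and the Cdh4 points of Ctrl ALBSF stand right of the other groups.

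Both catenin pairs were dominated by the neural member. The ratio of Ctnna2 to Ctnna1, each per kilobase, was 8.33 ± 1.5 in embWPC ALBSF, 7.52 ± 1.06 in Ctrl PMBSF and 7.38 ± 1.48 in Ctrl ALBSF (SD, n = 4 each). The ratio of Ctnnd2 to Ctnnd1 was 18.9 ± 2.18 in embWPC ALBSF, 16.5 ± 3.25 in Ctrl PMBSF and 15.7 ± 0.18 in Ctrl ALBSF, and it carries the uncertainty of Ctnnd1. The 3 groups overlapped in the alpha-catenin ratio. The Ctnnd2 to Ctnnd1 ratio had ranges of 17.1 to 21.9 (embWPC ALBSF), 14.0 to 21.2 (Ctrl PMBSF) and 15.5 to 15.9 (Ctrl ALBSF), so embWPC ALBSF and Ctrl ALBSF did not overlap.

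The tissue markers of the label were present. Slc17a6, which loads glutamate into vesicles in relay neurons, had 336 to 430 CPM in the 12 libraries, and Rora, a nuclear receptor of sensory thalamus, had 489 to 750 CPM. The lowest of 10 relay neuron markers were Gbx2, at 1.86 to 14.9 CPM, and Lhx2, at 0.927 to 7.88 CPM. The 10 summed to 2599 to 2930 CPM in embWPC ALBSF, 2381 to 2722 in Ctrl PMBSF and 2562 to 2969 in Ctrl ALBSF. That sum was lower in Ctrl PMBSF in 4 of 4 control pairs, but this rests on Tcf7l2. Tcf7l2 averaged 681 CPM in Ctrl PMBSF and 1154 CPM in Ctrl ALBSF, while the whole sum averaged 2510 and 2831 CPM. The other markers together were therefore not lower on average in Ctrl PMBSF. By gene, log2 differences were positive for 3 of the 10 and negative for 7. Between the control territories edgeR called 1 of the 10 higher and 1 lower, against 1.62% of all genes. DESeq2 called 2, Rora and Tcf7l2, among 507 genes in all. Transcripts of other cell types were present in amounts that differed between libraries. The 10 markers of astrocytes and radial glia summed to 5481 to 10500 CPM in embWPC ALBSF, 6453 to 8125 in Ctrl PMBSF and 7873 to 11600 in Ctrl ALBSF. Fabp7 alone had 4714 to 10900 CPM over the 12 libraries, the larger part of this sum. This sum was lower in Ctrl PMBSF in 4 of 4 control pairs. Of its 10 genes edgeR called 0, and 3 had an unadjusted p under 0.05, against 11.8% of all genes. DESeq2 called 1, Sox2, among 507 genes in all, and voom called 1 among 461. The 5 markers of ependyma and choroid plexus summed to 109.8 CPM in Ctrl ALBSF 2 and to 10.7 to 31.2 CPM in the other libraries. The summed CPM of 10 meningeal fibroblast markers was 12.2 to 13.5 in embWPC ALBSF, 15.5 to 91.1 in Ctrl PMBSF and 18.0 to 19.1 in Ctrl ALBSF, with Ctrl PMBSF 2 highest. The 7 markers of the oligodendrocyte lineage summed to 321 to 474 CPM in embWPC ALBSF, 342 to 373 in Ctrl PMBSF and 385 to 500.5 in Ctrl ALBSF, so the control territories did not overlap in this sum. The 12 endothelial and mural markers summed to 151 to 174 CPM in embWPC ALBSF, 127 to 192 in Ctrl PMBSF and 146 to 187 in Ctrl ALBSF, and 8 GABAergic markers summed to at most 43.4 CPM, with Slc32a1 between 0 and 0.265 CPM. In bulk tissue, fewer cells of a type and less RNA per cell cannot be told apart.

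The first comparison sets the whisker pad territory of control pups against their upper lip territory. Of the 8 genes, 1 was called at an adjusted p under 0.05 (edgeR quasi-likelihood test, adjusted by Benjamini-Hochberg over all 17501 genes tested): Cdh4 fell in Ctrl PMBSF. No member was called higher. Over all genes tested, 1.62% were called, 0.811% in each direction. The control libraries are paired by their numbers, and with the number as a block in a fit of the 2 control groups, 2 members were called, Cdh4 lower and Cdh2 higher, against 5.04% of genes (857). The groups did not overlap for 2 of 8 members, Cdh4 and Cdh2, against 8.28% of all genes. The median log2 difference was -0.07 over the members and 0.0043 over all genes, and the median absolute difference was 0.14 over the members and 0.13 over all genes.

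Cdh4, whose product R-cadherin forms adhesive contacts both with itself and with N-cadherin, was lower in the whisker pad territory. It had 18.5, 23.4, 26.9 and 19.0 CPM in Ctrl PMBSF libraries 1 to 4, against 41.5, 33.4, 36.7 and 37.4 CPM in Ctrl ALBSF libraries 1 to 4. The highest Ctrl PMBSF library was below the lowest Ctrl ALBSF library. The mean was 21.96 ± 3.98 CPM in Ctrl PMBSF and 37.3 ± 3.32 CPM in Ctrl ALBSF (SD, n = 4 each), a log2 difference of -0.76 ± 0.12 (SE; 95% interval -1.03 to -0.50) with an adjusted p of 0.00498. That is 0.589 times the level of the upper lip territory. Counts behind these values were 604 to 962 in Ctrl PMBSF and 951 to 1255 in Ctrl ALBSF.

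The Cdh4 call held in edgeR without each of the 12 libraries in turn, with log2 differences of -0.87 to -0.70. The embWPC ALBSF libraries are not part of this comparison. Leaving them out bears mainly on the shared spread, with log2 differences of -0.7655 to -0.7632. It was lost, at an adjusted p of 0.0647, when the mean log2 CPM of the oligodendrocyte lineage markers was entered as a covariate, an alternative chosen after seeing the data, with a log2 difference of -0.74 ± 0.17. Of those 7 markers, 1 was called in edgeR: Sox10, a transcription factor of the oligodendrocyte lineage, fell in Ctrl PMBSF by 0.67 ± 0.13 on the log2 scale (SE; adjusted p = 0.0189). In edgeR 5 of the 7 had an unadjusted p under 0.05, against 11.8% of all genes. Log2 differences were negative for 5 and positive for 2. The control groups did not overlap for 4, against 8.28% of all genes. DESeq2 called 2, Pdgfra and Sox10, among 507 genes in all. EdgeR with the replicate block called 4, against 5.04% of all genes: Cspg4, Olig2, Pdgfra and Sox10. The covariate moves with the territory itself, so the marker level and the territory cannot be told apart here. With the astrocyte and radial glia markers as covariate, also added after seeing the data, the difference was -0.75 ± 0.13 (adjusted p = 0.00941). With the meningeal markers as covariate it was -0.94 ± 0.16 (adjusted p = 0.0184), and without Ctrl PMBSF 2, the library with the most meningeal RNA, it was -0.80 ± 0.14 (adjusted p = 0.0145).

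**Figure D2:**
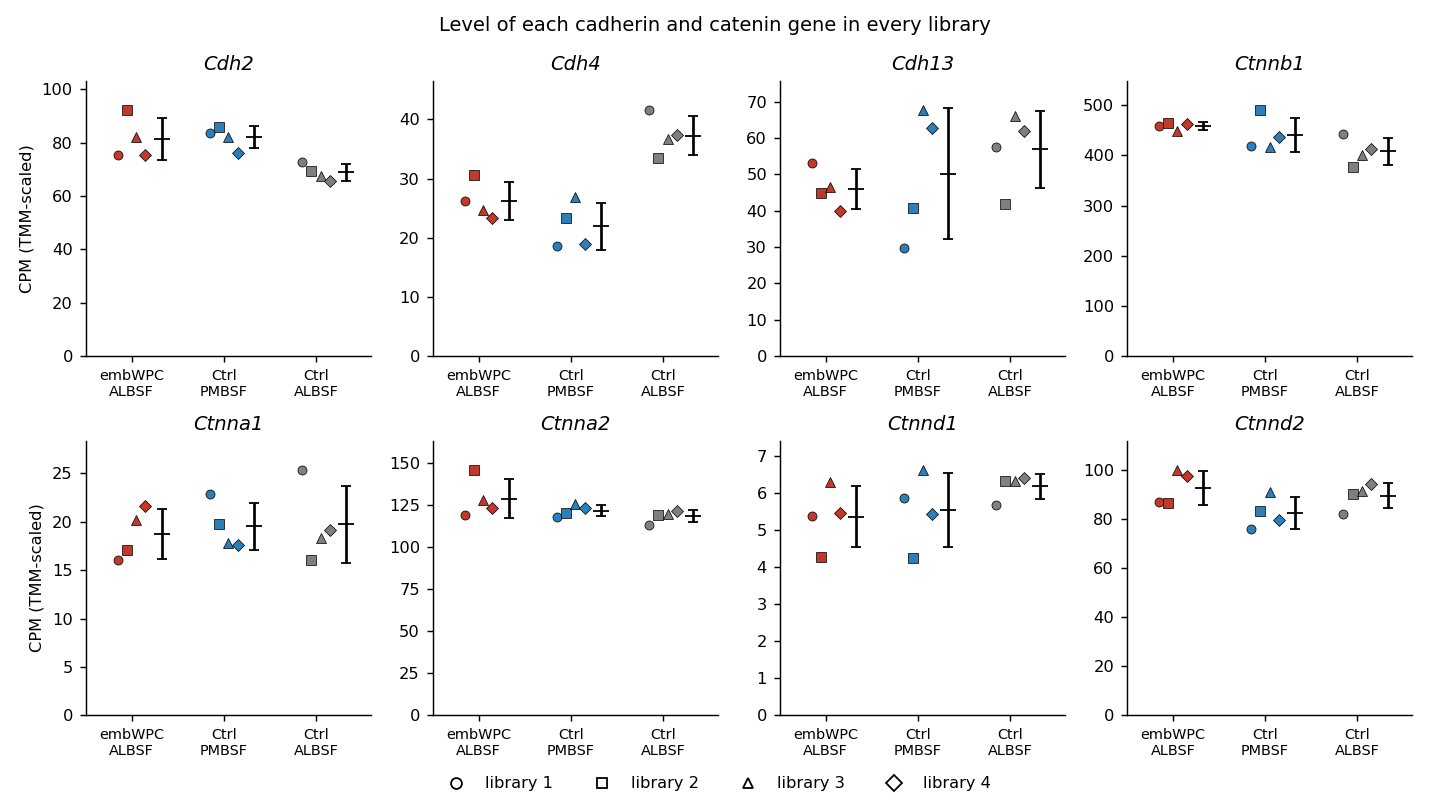
TMM-scaled CPM of each gene (vertical axes from 0) in embWPC ALBSF, Ctrl PMBSF and Ctrl ALBSF; the 4 marker shapes are libraries 1 to 4, and the bars are mean ± SD (n = 4). Cdh4 in Ctrl ALBSF lies above both other groups without overlap, Cdh2 in Ctrl ALBSF lies below both, and Cdh13 is widely spread in Ctrl PMBSF.

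Cdh2 values ran the other way, with a smaller difference. N-cadherin messenger RNA was at 83.6, 85.9, 82.2 and 76.2 CPM in Ctrl PMBSF libraries 1 to 4, against 72.9, 69.3, 67.6 and 65.5 CPM in Ctrl ALBSF. No library of Ctrl PMBSF was below any of Ctrl ALBSF. The mean was 82.0 ± 4.12 CPM in Ctrl PMBSF and 68.8 ± 3.11 CPM in Ctrl ALBSF (SD, n = 4 each), a log2 difference of 0.25 ± 0.07 (SE; 95% interval 0.09 to 0.41) that missed the threshold in edgeR (adjusted p = 0.135). In the fit of the 2 control groups alone the adjusted p was 0.088 without the block, and with it the difference was 0.25 ± 0.06 and was called (edgeR, adjusted p = 0.0228). Cdh2 was higher in Ctrl PMBSF in 4 of 4 pairs, by 0.20, 0.31, 0.28 and 0.22 on the log2 scale.

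Within a library, the balance of the pair Cdh4 and Cdh2 joins these opposite differences. The ratio of Cdh4 to Cdh2, per kilobase, was 0.319 ± 0.0535 in Ctrl PMBSF and 0.645 ± 0.0491 in Ctrl ALBSF (SD, n = 4 each). The Ctrl PMBSF range of 0.264 to 0.390 did not overlap the Ctrl ALBSF range of 0.575 to 0.679. N-cadherin messenger RNA thus exceeded R-cadherin messenger RNA per kilobase in every library of both territories.

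Cdh13, the lipid-anchored T-cadherin, had 29.7, 40.9, 67.6 and 62.8 CPM in Ctrl PMBSF libraries 1 to 4, against 57.6, 41.8, 66.2 and 62.0 CPM in Ctrl ALBSF. Ctrl PMBSF 1 was the lowest of all libraries, and the groups overlapped. The log2 difference was -0.18 ± 0.21 (SE; 95% interval -0.63 to 0.27; edgeR, adjusted p = 0.812), and without Ctrl PMBSF 1 it was -0.0017 (adjusted p = 0.999). By pair the log2 differences were -0.96, -0.03, 0.03 and 0.02, so 1 of the 4 pairs stood apart from the rest.

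**Figure D3:**
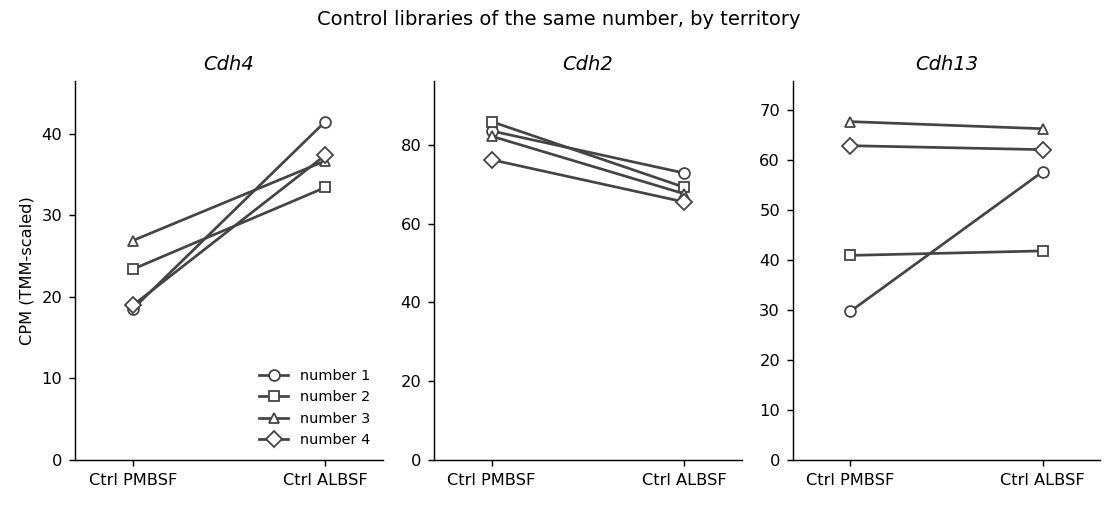
TMM-scaled CPM (axes from 0) of Cdh4, Cdh2 and Cdh13 in Ctrl PMBSF and Ctrl ALBSF; lines join control libraries of the same number. Cdh4 is lower in Ctrl PMBSF in 4 of 4 pairs, Cdh2 is higher in 4 of 4, and for Cdh13 only pair 1 shows a gap.

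Among the 5 catenin genes, edgeR called 0 between the control territories, and 0 had an unadjusted p under 0.05. Ctnnb1 had 420, 490, 417 and 437 CPM in Ctrl PMBSF libraries 1 to 4, against 442, 377, 400.5 and 412 CPM in Ctrl ALBSF, and the groups overlapped (log2 difference 0.11, 95% interval -0.05 to 0.28). Without Ctrl PMBSF 2 the Ctnnb1 difference was 0.0575, and with the meningeal covariate it was 0.026. Ctnna2 had 118 to 125 CPM in Ctrl PMBSF and 113 to 122 CPM in Ctrl ALBSF, a log2 difference of 0.04 with a 95% interval of -0.11 to 0.19, or 0.0154 without Ctrl ALBSF 1. For the other three, log2 differences were -0.01 for Ctnna1 (95% interval -0.31 to 0.29), -0.15 for Ctnnd1 (-0.47 to 0.16) and -0.12 for Ctnnd2 (-0.28 to 0.05), with overlapping groups. The Ctnnd1 difference was -0.0481 without Ctrl PMBSF 2 and -0.245 without Ctrl PMBSF 3. Ctnnd2 was lower in Ctrl PMBSF in 4 of 4 pairs, by 0.01 to 0.24 on the log2 scale, and was not called with the block (edgeR, adjusted p = 0.304). No member of the 5 was called by DESeq2 or by voom.

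The second comparison asks what differs in the upper lip territory of embWPC pups. It uses the same 4 Ctrl ALBSF libraries as the comparison above, so the results of both share the noise of these libraries. Of the 8 genes edgeR called 0, against 0.0629% of all genes tested, and 3 had an unadjusted p under 0.05 (Cdh4, Cdh2 and Ctnnb1), against 9.22% of all genes. DESeq2 called 1 member, Cdh4, among 175 genes in all, and voom called 0 members among 78 genes. The groups did not overlap for those 3 of 8 members, against 5.74% of all genes. The median log2 difference was -0.01 over the members and -0.01 over all genes, and the median absolute difference was 0.19 over the members and 0.13 over all genes.

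Cdh4 had 26.2, 30.6, 24.6 and 23.3 CPM in embWPC ALBSF libraries 1 to 4, against 41.5, 33.4, 36.7 and 37.4 CPM in Ctrl ALBSF. All 4 embWPC ALBSF libraries were below all 4 Ctrl ALBSF libraries, the closest values being 30.6 CPM in embWPC ALBSF 2 and 33.4 CPM in Ctrl ALBSF 2. The log2 difference was -0.51 ± 0.12 (SE; 95% interval -0.77 to -0.25), and its adjusted p was 0.143 in edgeR, 0.0194 in DESeq2 and 0.0255 in edgeR with no filter on low counts. It was called under no other of the alternatives run, where adjusted p values ran up to 0.363. Side by side, the log2 difference from Ctrl ALBSF was -0.51 in embWPC ALBSF and -0.76 in Ctrl PMBSF. The ratio of Cdh4 to Cdh2 was 0.384 ± 0.0266 in embWPC ALBSF and 0.645 ± 0.0491 in Ctrl ALBSF (SD, n = 4 each), with no overlap.

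Cdh2 had 75.2, 92.1, 82.0 and 75.5 CPM in embWPC ALBSF libraries 1 to 4, against 72.9, 69.3, 67.6 and 65.5 CPM in Ctrl ALBSF. The groups did not overlap, and library 2 was the highest of embWPC ALBSF. The log2 difference was 0.24 ± 0.07 (SE; 95% interval 0.08 to 0.40; edgeR, adjusted p = 0.302). Cdh13 had 53.2, 44.9, 46.5 and 39.8 CPM in embWPC ALBSF, against 57.6, 41.8, 66.2 and 62.0 CPM in Ctrl ALBSF, and the groups overlapped. Its log2 difference was -0.31 ± 0.21 with a 95% interval of -0.76 to 0.15.

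Ctnnb1 had 459, 465, 448 and 463 CPM in embWPC ALBSF libraries 1 to 4, against 442, 377, 400.5 and 412 CPM in Ctrl ALBSF. The embWPC ALBSF libraries were close together, with a coefficient of variation of 1.60%, and all lay above the highest Ctrl ALBSF library. The log2 difference was 0.17 ± 0.08 (SE; 95% interval 0.0034 to 0.34; edgeR, unadjusted p = 0.0461, adjusted p = 0.532). The other catenins overlapped between these groups. Ctnna2 had 119, 146, 128 and 123 CPM in embWPC ALBSF libraries 1 to 4 and 113 to 122 CPM in Ctrl ALBSF, with library 2 of embWPC ALBSF the highest. Log2 differences were 0.12 for Ctnna2 (95% interval -0.03 to 0.27), -0.07 for Ctnna1 (-0.37 to 0.23), -0.20 for Ctnnd1 (-0.52 to 0.11) and 0.05 for Ctnnd2 (-0.11 to 0.21). Without embWPC ALBSF 2 they were 0.0576 for Ctnna2 and -0.111 for Ctnnd1, and the Ctnnd2 difference ran from 0.0135 without embWPC ALBSF 3 to 0.0824 without embWPC ALBSF 2.

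**Figure D4:**
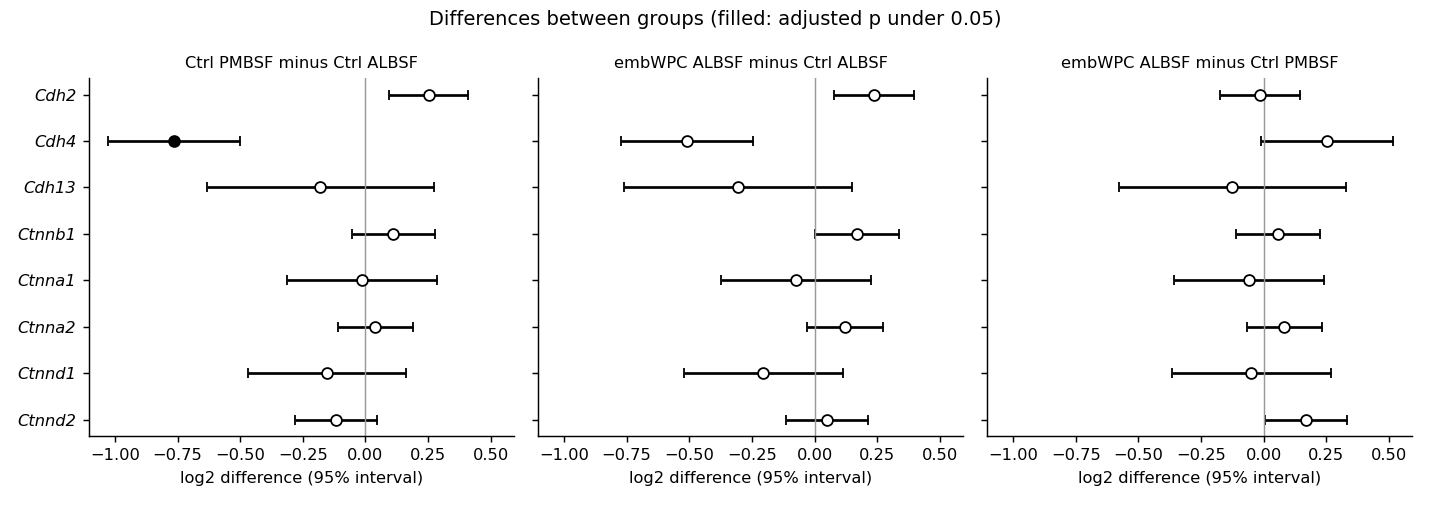
Log2 difference of each gene with its 95% interval (edgeR, all 12 libraries) in the 3 comparisons; filled circles are called at an adjusted p under 0.05, open circles are not. Only Cdh4 between Ctrl PMBSF and Ctrl ALBSF is filled, at -0.76.

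The third comparison sets the upper lip territory of embWPC pups against the whisker pad territory of control pups. Of the 8 genes edgeR called 0, against 0.00571% of all genes tested, and 1 had an unadjusted p under 0.05, against 9.47% of all genes. DESeq2 and voom called 0 members. For all 8 members the groups overlapped, while 4.73% of all genes did not. Cdh4 had 23.3 to 30.6 CPM in embWPC ALBSF and 18.5 to 26.9 CPM in Ctrl PMBSF (log2 difference 0.25 ± 0.12, SE; 95% interval -0.01 to 0.52; edgeR, adjusted p = 0.538). With the meningeal covariate, whose marker sums do not overlap between these groups, it was 0.54 ± 0.20 (adjusted p = 0.249). The ratio of Cdh4 to Cdh2 lay between 0.358 and 0.415 in embWPC ALBSF and between 0.264 and 0.390 in Ctrl PMBSF, and overlapped. Cdh2 differed by -0.01 with a 95% interval of -0.17 to 0.14, and Ctnnb1 by 0.06 with an interval of -0.11 to 0.22.

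Ctnnd2, the neural p120 relative, was the member with the unadjusted p under 0.05. It had 86.7, 86.6, 99.9 and 97.5 CPM in embWPC ALBSF libraries 1 to 4, against 75.8, 83.4, 90.9 and 79.6 CPM in Ctrl PMBSF. Its log2 difference was 0.17 ± 0.08 (SE; 95% interval 0.01 to 0.33; edgeR, unadjusted p = 0.0438, adjusted p = 0.522). Both groups overlapped with each other and with the 82.2 to 94.1 CPM of Ctrl ALBSF. Cdh13, Ctnna1, Ctnna2 and Ctnnd1 differed by -0.12, -0.06, 0.08 and -0.05 on the log2 scale, each with a 95% interval that includes 0.

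**Figure D5:**
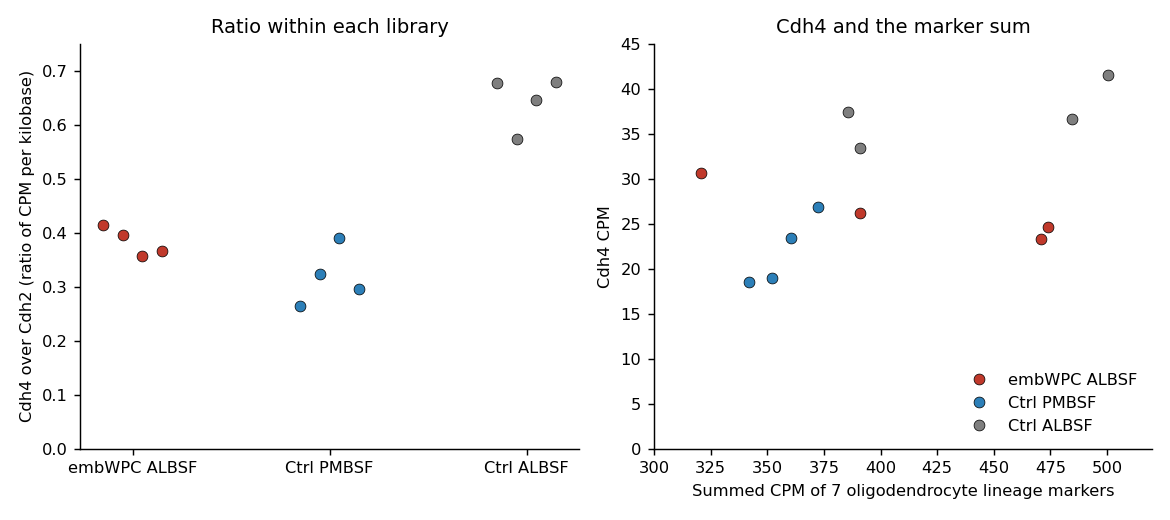
Left, the ratio of Cdh4 to Cdh2 per kilobase in each library; right, Cdh4 CPM against the summed CPM of 7 oligodendrocyte lineage markers, 1 point per library in the colours of the groups. The ratio in Ctrl ALBSF, 0.575 to 0.679, stands above both other groups, and at right the control territories are apart on both axes while embWPC ALBSF spans 321 to 474 CPM of the markers.

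The rest of the adhesion system was followed in lists of related genes. Of the other type I cadherins, Cdh1 (E-cadherin) had 0.132 to 1.38 CPM and Cdh3 (P-cadherin) up to 0.775 CPM over the 12 libraries. Cdh15 (M-cadherin) had 2.05 to 8.54 CPM, a range that includes the 4.27 to 6.63 CPM of Ctnnd1. These values are not per kilobase. Among 8 other catenins and plakophilins, plakoglobin (Jup) had 34.9 to 57.7 CPM, Arvcf 39.3 to 49.9 CPM and Pkp4 27.7 to 37.5 CPM, while Ctnna3 had at most 0.463, Pkp1 at most 0.0323 and Pkp3 at most 0.283 CPM. Adipoq, the gene of the T-cadherin ligand adiponectin, had 0 counts in all 12 libraries, which allows up to 0.0786 to 0.105 CPM per library at 3 counts. In the lists of other type I cadherins, other catenins, 22 adherens junction partners, 13 beta-catenin turnover genes, 10 N-cadherin cleaving enzymes and the adiponectin receptors, edgeR called 0 of the 55 genes tested in each of the 3 comparisons. Between the control territories 12 of the 55 had an unadjusted p under 0.05, against 11.8% of all genes, and 5 of these were among the 22 junction partners. DESeq2 called 1 there, Jup, among 507 genes in all, and voom called 0 among 461. The fit of the 2 control groups with the replicate block called 4, Amer2, Jup, Pcsk5 and Zyx, against 5.04% of all genes. In embWPC ALBSF, 4 of the 55 had such a p against Ctrl ALBSF (9.22% of all genes) and 11 against Ctrl PMBSF (9.47% of all genes), and neither DESeq2 nor voom called any. The median log2 difference between Ctrl PMBSF and Ctrl ALBSF was -0.07 over the junction partners and -0.04 over the turnover genes.

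Among 15 nuclear partners and feedback targets of beta-catenin, 1 fell in Ctrl PMBSF and 0 rose, against 1.62% of all genes called in edgeR. It was Tcf7l2, a TCF factor that is also a selector gene of thalamic neurons, with 587 to 805.5 CPM in Ctrl PMBSF and 867 to 1289 CPM in Ctrl ALBSF (log2 difference -0.76 ± 0.16, SE; edgeR, adjusted p = 0.0301). In embWPC ALBSF against Ctrl ALBSF, 0 of the 15 were called by edgeR, DESeq2 or voom, and 2 had an unadjusted p under 0.05, against 9.22% of all genes.

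The type II cadherins are relatives that bind by a different outer interface and share the catenin-binding tail. Of 12 tested, edgeR found that 1 rose and 5 fell in Ctrl PMBSF against Ctrl ALBSF, where 1.62% of all genes were called. In embWPC ALBSF against Ctrl ALBSF 2 fell in edgeR, which called 0.0629% of all genes there. DESeq2 called 4 of the list among 175 genes in all, and voom called 3 among 78. Cdh10 had 8.98 to 13.3 CPM in Ctrl PMBSF and 19.0 to 20.5 CPM in Ctrl ALBSF (log2 difference -0.96 ± 0.13, adjusted p = 0.00191), and Cdh6 had 95.7 to 135 CPM in Ctrl PMBSF and 181 to 203 CPM in Ctrl ALBSF (-0.67 ± 0.10, adjusted p = 0.00356). Cdh9 was at 0.470 to 0.807 CPM in embWPC ALBSF and 0.430 to 0.810 CPM in Ctrl PMBSF, against 1.36 to 4.25 CPM in Ctrl ALBSF, and fell in both comparisons with Ctrl ALBSF (adjusted p = 0.0215 for embWPC ALBSF and 0.00275 for Ctrl PMBSF). Cdh22 had 3.05 to 3.98 CPM in embWPC ALBSF and 6.09 to 7.30 CPM in Ctrl ALBSF (-0.98 ± 0.15, adjusted p = 0.0441). The median log2 difference over the type II list was -0.10 between the control territories and -0.11 between embWPC ALBSF and Ctrl ALBSF.

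Cdh4 was the one member whose group means differed by at least 0.5 on the log2 CPM scale. The 5 genes whose centred log2 CPM profiles over the 12 libraries lay nearest to it, of 12661 compared, were Sez6, Cnksr3, Tmem178, Timp2 and Acvr1, at root mean square differences of 0.179, 0.179, 0.188, 0.192 and 0.196. Sez6, which encodes a membrane protein of neurons, averaged 206.5 ± 24.3 CPM in embWPC ALBSF, 170.5 ± 21.4 CPM in Ctrl PMBSF and 267 ± 19.2 CPM in Ctrl ALBSF (SD, n = 4 each). Timp2, an inhibitor of metalloproteinases, averaged 144 ± 11.8 CPM in embWPC ALBSF, 131 ± 6.43 CPM in Ctrl PMBSF and 179 ± 18.7 CPM in Ctrl ALBSF (SD, n = 4 each). The likeness is a description over these libraries, and it was picked from all genes compared.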

How the data were processed

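Poly-A RNA of 12 libraries was sequenced in pairs of 150 nucleotides, and samples had RNA integrity numbers above 8, per the labels' protocols. The deposited values are raw counts per Ensembl gene. Per the submitters' processing notes and design text, the authors used STAR 2.7.9a with GRCm39 (mm10 is listed too) and featureCounts (Subread 2.0.1) with Ensembl release 104. Settings for strand, multiply aligned reads and read pairs are not given in the sources used here. Symbols, positions and exon lengths came from GENCODE mouse release 39, which held 54749 of 55359 genes.

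The counts were fitted in R 4.3.3 with edgeR 4.0.16 (quasi-likelihood test, TMM, filterByExpr, group only, 12 libraries together). Calls were made at an adjusted p (Benjamini-Hochberg, 17501 genes) under 0.05. The biological coefficient of variation was 15.8%. The fit was also run on counts simulated for independent libraries, so that run does not cover the pairing of the control libraries. Alternatives were RLE or no composition scaling, no filter, DESeq2 1.42.0, voom with quality weights (limma 3.58.1), 2 groups only, a replicate block, marker covariates, and each library left out. The oligodendrocyte and astrocyte covariates were added after seeing the data.

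In the control groups, deviations of libraries with the same number correlated at 0.198 to 0.396, so the numbers pair them; those of embWPC ALBSF did not pair (-0.147 to 0.051). No 2 libraries agreed within sampling noise (lowest chi-square per degree of freedom 14). The members and lists were chosen with earlier results of these data known, and the results of 1 list are not reported here. Named genes were all 8 members, up to 3 called genes with the smallest p per list and comparison, and the 5 nearest profiles to a member whose group means differ by 0.5 or more (log2 CPM, prior count 2, mean of at least 1 CPM). Genes of low level or of marker lists were named to describe them. The most hydrophobic 20 codons were sought after the first 50 codons.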

Additional observations from a re-analysis of the deposited data

Results flagged for a closer look

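Of 24 groups of 4 libraries checked, 1 held a library that stood apart from the other three: Ctnnd1 in Ctrl ALBSF 1, at 5.69 CPM, against 6.33 to 6.41 CPM in Ctrl ALBSF 2 to 4. Its gap to the nearest library was 0.884 of the group's range, above Dixon's 95% critical value for a group of 4. Chance gives such a gap in about 1 in 20 groups. The value lies inside the ranges of embWPC ALBSF (4.30 to 6.32 CPM) and Ctrl PMBSF (4.27 to 6.63 CPM).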

How the results depend on the processing

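Cdh4 between Ctrl PMBSF and Ctrl ALBSF was called under 22 of 23 alternatives, with log2 differences of -0.94 to -0.66. Those alternatives include leaving out each embWPC ALBSF library, which is not part of this comparison. The number of members called lower went to 0 with the oligodendrocyte marker covariate. With the replicate block, fitted on 2 groups, 1 member, Cdh2, was called higher there, and 857 genes in all; no other member's call changed with a block. Without a replicate, 1 member was called lower and 0 higher, and 127 to 282 genes were called against 284; leaving out Ctrl ALBSF 2 gave 160, Ctrl ALBSF 3 gave 127, Ctrl ALBSF 4 gave 155 and Ctrl PMBSF 2 gave 163. Genes called were 507 with DESeq2, 461 with voom, 165 with the meningeal, 186 with the endothelial and 120 with the oligodendrocyte covariate. For embWPC ALBSF against Ctrl ALBSF, 1 member (Cdh4) was called lower with no filter and with DESeq2. The 11 genes called there became 7 with library totals, 121 with no filter, 175 with DESeq2, 78 with voom, 1 with the block, 25 with the meningeal, 19 with the endothelial and 19 with the oligodendrocyte covariate, and 1 to 37 without a library. For embWPC ALBSF against Ctrl PMBSF the 1 gene became 72 with no filter, 71 with DESeq2, 0 with the block, 4, 7 and 2 with those 3 covariates in that order, 4 with the astrocyte covariate, and 1 to 3 without a library.

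Signs turned only for members that were not called. Between Ctrl PMBSF and Ctrl ALBSF, Ctnna1 was at 0.08 with library totals, 0.0064 with voom, 0.125 with the meningeal, 0.0125 with the endothelial and 0.28 with the oligodendrocyte covariate; Ctnnd1 was at 0.0279 with the meningeal covariate. Between embWPC ALBSF and Ctrl ALBSF, Ctnna1 was at 0.0767 without Ctrl ALBSF 1, and at -0.161 at the lowest without another library. Between embWPC ALBSF and Ctrl PMBSF, Ctnnb1 was at -0.0050 with library totals, Ctnnd1 at 0.0101 with voom and 0.10 with the endothelial covariate, Ctnna1 at 0.0153 with the astrocyte covariate, and Cdh2 and Cdh13 at 0.0345 and 0.169 with the meningeal covariate. Without a library, that comparison gave -0.0794 to 0.0283 for Cdh2, -0.296 to 0.055 for Cdh13, -0.129 to 0.0377 for Ctnna1 and -0.156 to 0.0483 for Ctnnd1, and the control comparison gave -0.104 to 0.1295 for Ctnna1. The cause was not tested. Library totals moved the median of all genes by at most 0.10 (log2). Depth limits Ctnnd1 most, at 133 to 237 counts.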
